A study of Mus musculus with 3 samples.

Results

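Protein-coding genes that were read in 1 lymphoma and nearly absent from both others are described here. The genes were chosen by their raw counts: a gene belonged to the set when it had at least 100 raw counts in exactly 1 of 3 lymphoma libraries and at most 10 in each of the others. Epas1 and the T cell genes Ubash3a, Sh2d1a, Cd3g and Cd3d were left out by choice, of which 3 (Epas1, Ubash3a and Sh2d1a) met the limits. The set held 164 of 18730 protein-coding genes, with 18 in tumour 1, 34 in tumour 2 and 112 in tumour 3. Their levels in these libraries therefore are a description and were not tested.

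The libraries are sorted B220+GFP+ spleen cells of C57BL/6 mice of the pBIC2 model, and the labels give 1 group of 3. All carried the same alleles, given as p53F/F, Blimp1F/F, IKK2castopF/stopF, Cg1Cre/+ and Eµ-hBCL2tg/+. That is, Cre made under control of the Cγ1 locus acts on floxed p53 and Blimp1 genes and releases an active IKK2 kinase, and a human BCL2 transgene is present in addition. Spleens came from moribund animals, no age is given, and the labels do not state that each library came from another mouse. No normal B cell library was used here, so a gene silent in 2 tumours is not shown to be silent in normal B cells.

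A differentiated cell transcribes the genes of its own lineage and keeps most genes of other lineages off, through missing activators and closed or methylated chromatin. Lymphomas are clonal, so a gene switched on in the founding cell or a later subclone can be read in one tumour and not in the next. Genes of neurons, muscle and germ cells are among those that are normally off in lymphocytes, and germ cell genes read in tumours are known as cancer-testis genes. In bulk RNA, fewer cells of a type and less RNA per cell cannot be told apart.

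Depth was similar, at 15576975, 16477997 and 17014022 counts in tumours 1, 2 and 3, where 100 counts equal 6.63, 6.13 and 5.64 CPM (counts scaled to library size with TMM factors). The B cell genes Cd79a, Ms4a1 and Pax5 had 13706 or more counts in every library, while Ebf1 had 1498, 3407 and 3849. All 12 B cell markers summed to 22656, 21929 and 17015 CPM. B cell RNA was thus present in every library, which does not show that no other cells were there. Other cell types differed between libraries. Summed over 12 T cell markers, the level was 228, 80.4 and 1345 CPM, with 11 of 12 highest in tumour 3. Summed over 10 macrophage markers it was 36.1, 411 and 180 CPM, with 9 of 10 highest in tumour 2. Cd68 alone made most of each sum (24.8, 325 and 162 CPM), while C1qa had 0.53, 8.7 and 0.68 CPM and Csf1r 0.99, 15.6 and 2.59. The 9 neutrophil markers summed to 0.199, 17 and 42.9 CPM and the 6 NK cell markers to 1.86, 2.45 and 48.3 CPM, with Gzma, a gene of the set, among the latter. In tumour 3, Prf1 (40 CPM) and Gzma (7.33 CPM) made most of the NK cell sum. The other NK cell markers did not share this: Klrd1 and Klre1 had at most 10 counts in any library, Ncr1 had none, and Klrb1c had 26, 1 and 0. Tumour 1 was low in each of these lists apart from T cell markers, of which Lck (68.7 CPM) and Tcf7 (146 CPM) made most of its sum.

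Promoter sequences of 4 genes are shown first to display how the genes of the set differ in CpG content, the feature of promoters on which DNA methylation acts. Each runs from 250 bases before to 50 after the RefSeq start (RefSeq, GRCm38.p6), 5′ to 3′ on the gene's strand, with CpG dinucleotides in capitals. Ifitm2 stands for tumour 1 (chr7:140955912-140956211, minus strand), Pcdh17 for tumour 2 (chr14:84443313-84443612, plus strand), and Kcnip3 (chr2:127522045-127522344, minus strand) and Trat1 (chr16:48772013-48772312, minus strand) for tumour 3.
Ifitm2: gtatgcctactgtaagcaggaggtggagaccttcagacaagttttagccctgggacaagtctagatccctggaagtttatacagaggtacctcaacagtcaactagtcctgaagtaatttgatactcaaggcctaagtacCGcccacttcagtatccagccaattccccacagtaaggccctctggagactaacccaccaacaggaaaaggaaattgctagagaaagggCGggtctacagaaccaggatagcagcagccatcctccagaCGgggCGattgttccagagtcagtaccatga
Pcdh17: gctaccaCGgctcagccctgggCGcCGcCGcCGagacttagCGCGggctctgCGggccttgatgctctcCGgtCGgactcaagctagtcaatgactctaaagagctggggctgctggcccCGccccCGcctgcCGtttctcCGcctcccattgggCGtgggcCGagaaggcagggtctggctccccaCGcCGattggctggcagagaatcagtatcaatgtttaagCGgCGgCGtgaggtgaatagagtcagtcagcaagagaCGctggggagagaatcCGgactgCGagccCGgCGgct
Kcnip3: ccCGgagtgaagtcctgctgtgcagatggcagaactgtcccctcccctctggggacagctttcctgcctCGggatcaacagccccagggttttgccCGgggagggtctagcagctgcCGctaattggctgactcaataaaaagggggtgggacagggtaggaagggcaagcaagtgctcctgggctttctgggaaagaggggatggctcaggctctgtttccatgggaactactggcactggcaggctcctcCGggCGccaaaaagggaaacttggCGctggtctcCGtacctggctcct
Trat1: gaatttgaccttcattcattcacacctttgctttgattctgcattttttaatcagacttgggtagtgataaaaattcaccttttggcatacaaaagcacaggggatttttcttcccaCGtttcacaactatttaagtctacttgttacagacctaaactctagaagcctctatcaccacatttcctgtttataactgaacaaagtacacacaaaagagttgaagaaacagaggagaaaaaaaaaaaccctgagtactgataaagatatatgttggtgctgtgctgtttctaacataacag
The window of Pcdh17, a neuronal protocadherin, holds 26 CpG (observed over expected ratio 0.822), and that of Trat1, a T cell receptor adaptor, holds 1 (0.108). Those of Ifitm2 and Kcnip3 hold 4 (0.216) and 8 (0.296). The windows of Nyx, Myh13 and Gm11639, other leading genes, lie 5020, 5445 and 95502 bases from the GENCODE start of the gene and are not printed.

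The 3 tumours contributed very unequally. Shares were taken over the protein-coding genes with 100 counts in a given tumour. Genes read there alone were 0.207% of 8699 in tumour 1, 0.377% of 9023 in tumour 2 and 1.22% of 9398 in tumour 3. The share of tumour 3 counts 115 genes, since it includes the 3 left out by choice. Over all 3, the share was 1.69% of 9899 genes with 100 counts in any library (the 3 genes left out by choice included). The reverse pattern, 100 counts in both other tumours and at most 10 in the one, was met by 100 genes for tumour 1 (1.15%), 7 for tumour 2 (0.0831%) and 10 for tumour 3 (0.119%). Tumour 1 thus had the fewest genes of its own and the most missing genes. With 1 library left out, 173 genes separated tumours 2 and 3, 417 tumours 1 and 3, and 259 tumours 1 and 2.

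**Figure D1:**
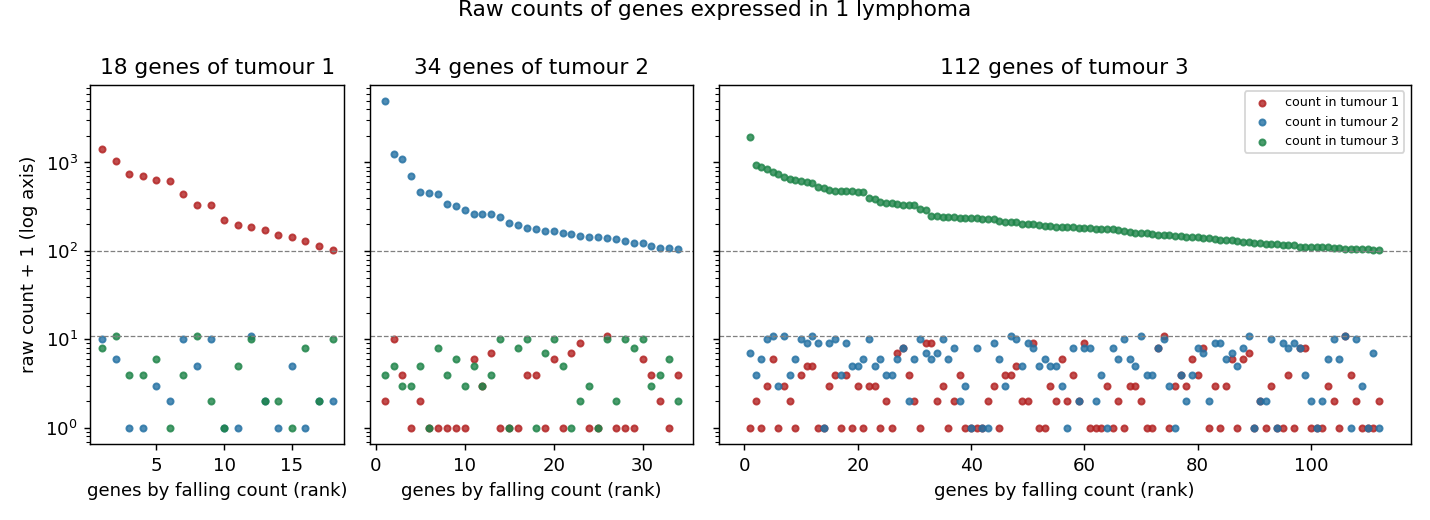
Raw count plus 1 (log axis) of each gene in all 3 libraries, in panels by the tumour that reads the gene and ordered by falling count, with dashed lines at the limits of 100 and 10 counts. The 18, 34 and 112 genes lie above the upper line in 1 library and at or under the lower line in the others, and points at equal values cover each other.

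Most of the genes were read at moderate levels. The median count in the reading tumour was 274 in tumour 1, 179 in tumour 2 and 185 in tumour 3, against 808, 806 and 832 for all protein-coding genes with 100 counts there. Per length, the median was 5.24, 2.91 and 2.63 RPKM (reads per kilobase of exon, scaled to library size as CPM) against 11.2, 10.7 and 10.2 RPKM. A total of 24 genes passed 500 counts and 6 passed 1000. No count at all in either other tumour was found for 11 genes, among them Gria1, Cartpt and Epb41l4b of tumour 2, Fam186a of tumour 1 and Bmp7, Perp and Plod2 of tumour 3. Per length, Ifitm2 led tumour 1 (106 RPKM), Myh13 led tumour 2 (48.8 RPKM) and the predicted gene 3830403N18Rik led tumour 3 (28.6 RPKM, and 0, 0 and 518 counts).

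The limits are arbitrary, and genes lie close to both sides of them. Just inside 100 counts were Gprin3 (1, 0 and 101 counts in tumours 1, 2 and 3), Ifitm1 (102, 1 and 9) and Sytl2 (0, 6 and 102). Just outside were Zdhhc15 (0, 2 and 99), Srms (7, 5 and 97) and Olfml2a (0, 93 and 7). At the limit of 10, Ifitm2, Fam129b and Podnl1 were inside with 10 counts in a second library, and Apol11b (2, 347 and 11), Gpr157 (11, 187 and 5) and Chst2 (0, 11 and 186) were outside. Counting error alone, as an exact Poisson interval at 95%, spans 81.4 to 122 around 100 counts and 4.80 to 18.4 around 10 counts.

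Sorted by what the genes are known for, 27 were neural, 7 lymphoid, 6 muscle and 2 germline genes, and 122 had other or less specific roles. Neural genes came from every tumour, with 7 in tumour 1, 7 in tumour 2 and 13 in tumour 3. All 7 lymphoid genes were read in tumour 3. Muscle genes numbered 1, 3 and 2, and the germline genes were 1 each in tumours 2 and 3. The sort was made from gene names and textbook roles, and many of the genes sorted as neural are also known from other tissues. Only genes of the set were sorted, so these counts have no share over all protein-coding genes beside them and show no excess of a class.

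**Figure D2:**
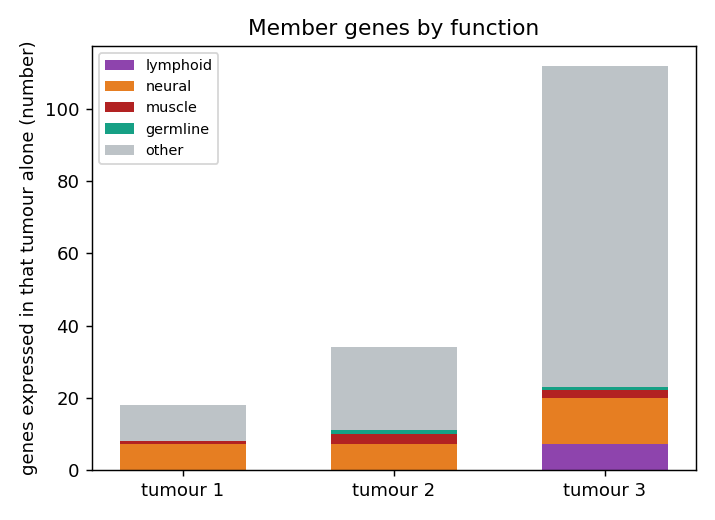
Number of genes read in 1 tumour alone, stacked by function. Neural genes make 7 of 18 in tumour 1, 7 of 34 in tumour 2 and 13 of 112 in tumour 3, and lymphoid genes appear in tumour 3 with 7.

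Lymphoid genes formed the group with 1 tumour in common. Ikzf2, which encodes Helios, an Ikaros family transcription factor of regulatory T cells, had 0, 6 and 1929 counts (chromosome 1, 69531214 to 69687245, mm10). Tox, a nuclear factor of developing and exhausted T cells, had 3, 9 and 609 counts, and Skap1, an adaptor that links the T cell receptor to integrins, had 4, 8 and 601. Trat1 had 1, 3 and 349 counts, and Sla2, an adaptor that dampens antigen receptor signals, had 7, 7 and 333. Ctla2a, a protease inhibitor first found in activated T cells, had 0, 9 and 298 counts, and Gzma, the granule protease granzyme A, had 0, 4 and 130. That 1 tumour alone is high follows from the rule, which allows at most 10 counts in the others. Tumours 1 and 2 were at 9 counts or fewer in these genes.

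T cell markers outside the set were also highest in tumour 3, in 11 of 12 cases. Cd8a had 10, 74 and 4222 counts, Cd3e 0, 23 and 1023, Thy1 13, 54 and 3351, and Trac, the T cell receptor alpha constant gene, 87, 199 and 2569. Lck, a kinase of the T cell receptor, had 1036, 384 and 3547 counts and the transcription factor Tcf7 2200, 186 and 3550, both with more counts in tumour 1 than in tumour 2. Cd4 alone of the 12 markers was highest in tumour 2 (9, 95 and 16 counts). The part of these cells' RNA in the lymphoid genes, and in the other genes of tumour 3, was not tested.

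Relatives of the lymphoid genes were not all tumour-specific. In the Ikaros family, Ikzf1 had 11706, 15022 and 16995 counts and Ikzf3 (Aiolos) 2496, 7632 and 11323, both high in every tumour, while Ikzf4 (Eos) had 1, 2 and 26. Tox2 had 0, 18 and 507 counts and missed the limit of 10 in tumour 2, and Tox4 had 1295, 1460 and 1635. Skap2 was highest in tumour 1 (3371, 1023 and 784 counts), and Sla, the relative of Sla2, had 1693, 5683 and 3042.

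Among 61 lymphoid genes listed from general knowledge, 40 reached 100 counts in any tumour and none met both limits, although 15 reached 100 in 1 tumour alone. None of the 7 lymphoid genes of the set is on that list, so its count of 0 says nothing about them. Near misses in tumour 3 were Cxcr3 (0, 23 and 1144 counts) and Prf1 (0, 26 and 709). Of all 18730 protein-coding genes, 8831 were under 100 counts in every tumour, 936 reached 100 in 1 tumour alone and 0.892% met the rule, the 3 genes left out by choice included.

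**Figure D3:**
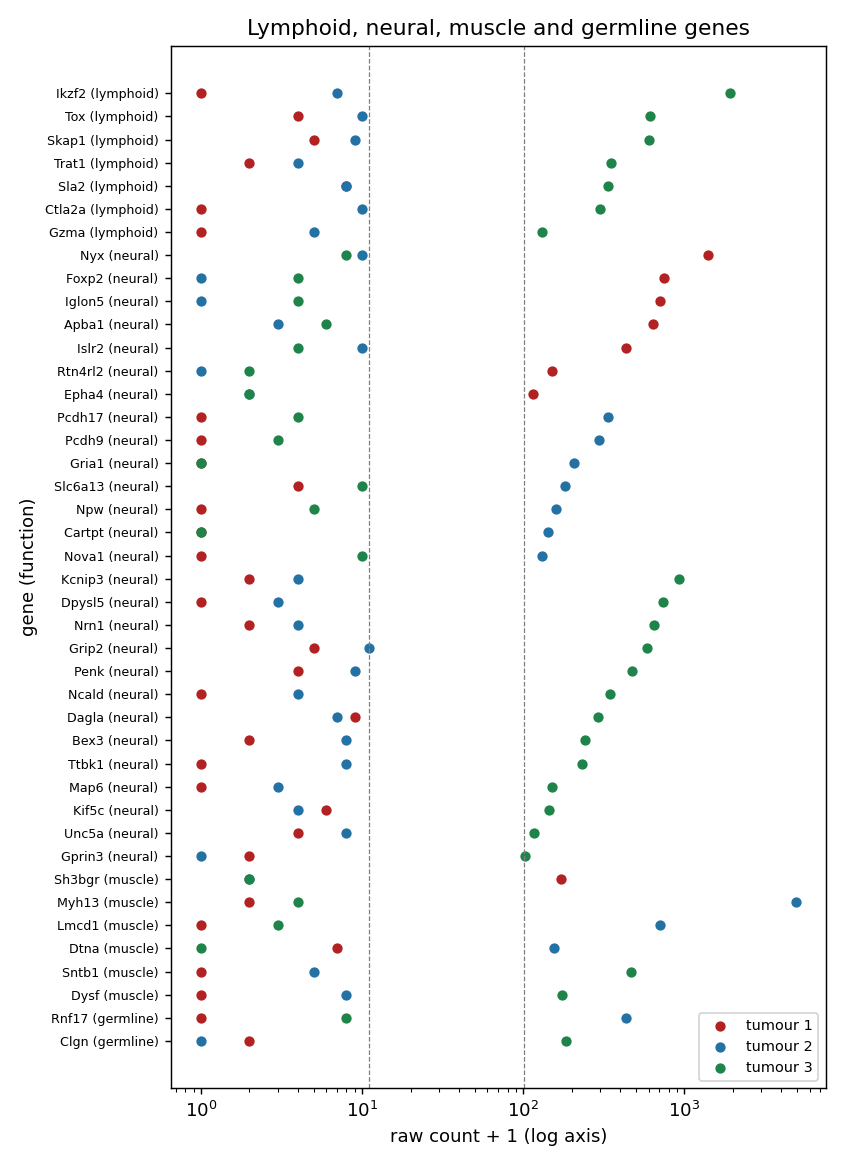
Raw count plus 1 (log axis) in tumours 1, 2 and 3 for the 42 genes sorted as lymphoid, neural, muscle or germline, with dashed lines at the limits of 100 and 10 counts. For example, Myh13 lies at 4917 counts in tumour 2, Ikzf2 at 1929 in tumour 3 and Nyx at 1404 in tumour 1, and points at equal values cover each other.

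In tumour 1, genes sorted as neural were 4 of the 5 genes with the most counts, without a like share over all genes. Nyx, which encodes nyctalopin, a leucine-rich repeat protein of retinal bipolar cells, had 1404, 9 and 7 counts (93.1 CPM in tumour 1; chromosome X, 13466110 to 13489313). Foxp2, a forkhead transcription factor of brain circuits for vocal learning, had 749, 0 and 3 counts. Its relatives Foxp1 (2889, 6288 and 5911 counts) and Foxp4 (3811, 2423 and 1705) were read in all 3 tumours. Foxp3, also of this family, was highest in tumour 3 (6, 20 and 560 counts). Iglon5, a neuronal cell adhesion protein, had 705, 0 and 3 counts, and Apba1, an adaptor of the presynapse, had 639, 2 and 5.

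The remaining neural genes of tumour 1 were surface proteins of growing axons. Islr2, an axon guidance protein with immunoglobulin and leucine-rich repeats, had 435, 9 and 3 counts. Rtn4rl2, a Nogo receptor relative, had 149, 0 and 1 counts, and Epha4, an ephrin receptor, had 114, 1 and 1. All 7 were low elsewhere by the rule, here at 9 counts or fewer. The T cell markers summed to 228 CPM in tumour 1, between tumour 2 (80.4 CPM) and tumour 3 (1345 CPM). Macrophage and neutrophil markers had their lowest sums in tumour 1, and 8 of 9 neutrophil markers had no count there. The part of such cells in these genes was not tested.

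The neural genes of tumour 2 were read at lower counts, from 130 to 335. The protocadherins Pcdh17 (0, 335 and 3 counts) and Pcdh9 (0, 293 and 2), homophilic adhesion proteins of neurons, led them, while Pcdh7, Pcdh8, Pcdh10 and Pcdh15 had no count in any tumour. Gria1, a subunit of AMPA-type glutamate receptors, had 0, 205 and 0 counts, beside 0, 9 and 2 for Gria3 and none for Gria4. Slc6a13, a GABA transporter, had 3, 182 and 9 counts.

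Neuropeptide precursors were also among them. Npw (neuropeptide W) had 0, 158 and 4 counts and Cartpt, the precursor of the CART peptide of feeding circuits, had 0, 142 and 0. Nova1, a neuronal splicing regulator, had 0, 130 and 9 counts. The rule allows at most 10 counts in the other tumours, and these 7 genes had 9 or fewer there. Macrophage markers were highest in this tumour, with Csf1r at 15, 255 and 46 counts and C1qb at 13, 170 and 12, and their part in these genes was not tested.

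Tumour 3 read 13 neural genes. Kcnip3, a calcium sensor that binds potassium channels, had 1, 3 and 926 counts, while its relatives Kcnip1, Kcnip2 and Kcnip4 had at most 0, 7 and 29 counts in any tumour. Dpysl5, a collapsin response mediator of axon growth, had 0, 2 and 732 counts, beside 1, 39 and 332 for Dpysl2. Nrn1 (neuritin), which promotes neurite growth and is also known from regulatory T cells, had 1, 3 and 645 counts. Grip2, a scaffold of AMPA receptors, had 4, 10 and 589 counts, although Gria1 itself had none in this tumour.

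Peptide, lipid and calcium signalling genes followed. Penk, the enkephalin precursor, which T cells can also make, had 3, 8 and 474 counts. Ncald, a neuronal calcium sensor, had 0, 3 and 345 counts, and Dagla, which makes the endocannabinoid 2-AG, had 8, 6 and 289. Bex3, a partner of the p75 neurotrophin receptor, had 1, 7 and 241 counts and Ttbk1, a tau kinase, had 0, 7 and 232.

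Genes of axon structure were the lowest. Map6, a stabiliser of microtubules, had 0, 2 and 150 counts, Kif5c, a neuronal kinesin heavy chain, 5, 3 and 143, and Unc5a, a netrin receptor, 3, 7 and 116. Gprin3, named for a role in neurite outgrowth, had 1, 0 and 101 counts. By the rule, all 13 genes had 10 counts or fewer in the other tumours.

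Of 62 listed neural genes in the files, 52 were under 100 counts in every tumour, beside 8831 of all 18730 protein-coding genes. The listed genes that reached 100 counts in all tumours were 3, and 2 (Gria1 and Penk, 3.23%) met the rule, beside 0.892% of all protein-coding genes. The list was chosen with earlier results of these data known and the share rests on 2 genes, so it does not measure an excess of neural genes. The neuronal genes Gad1 (297, 409 and 1405 counts) and Robo1 (1, 1013 and 1790) were read in 2 or more tumours.

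The gene of the whole set with the most counts was a muscle gene. Myh13, the myosin heavy chain of extraocular muscle, had 1, 4917 and 3 counts, or 0.0663, 301 and 0.169 CPM, with an exact 95% Poisson interval of 4781 to 5056 counts in tumour 2. It lies on chromosome 11 (67321658 to 67371586) at the end of the myosin heavy chain cluster. In that cluster Myh8 had 0, 31 and 0 counts, Myh2 0, 16 and 0, and Myh3 0, 13 and 4, while Myh1 and Myh4 had none. On the other side, Gas7 had 2392, 2706 and 4875 counts, with no excess in tumour 2. Reads of such similar genes can be shared, so the low values of the other myosins in tumour 2 are uncertain.

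The other muscle genes lay elsewhere in the genome. Lmcd1, a LIM-domain regulator in heart and skeletal muscle, had 0, 708 and 2 counts, and its neighbours Grm7 and Oxtr had none in any tumour. Dtna (dystrobrevin alpha) of the dystrophin complex had 6, 155 and 0 counts. Sntb1 (syntrophin beta 1), of the same complex, was read in tumour 3 with 0, 4 and 469 counts, as was Dysf (dysferlin), a protein of muscle membrane repair, with 0, 7 and 174. Sh3bgr, known from heart and skeletal muscle, had 170, 1 and 1 counts.

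Of 67 listed muscle genes, 59 were under 100 counts everywhere, beside 8831 of all 18730 protein-coding genes. None met the rule, but none of the 6 muscle genes of the set is on that list. Titin (Ttn) had 16, 992 and 2034 counts and Jph1, which couples membranes in muscle, 1, 20 and 480, above the limit in tumour 2. Myosin light chain Myl4 had 748, 474 and 380 counts. The muscle genes Des, Ckm, Acta1 and Myod1 stayed under 100 counts in every tumour.

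Germline genes were the smallest group. Rnf17, a Tudor domain protein needed for mouse spermatid development, had 0, 435 and 7 counts, and its neighbours Atp12a (no count) and Cenpj (374, 688 and 620) did not share the pattern. Clgn (calmegin), a chaperone of the testis needed for mouse sperm function, had 1, 0 and 184 counts, while the general chaperones Calr (16113, 19965 and 14117) and Canx (6258, 11357 and 12656) were high throughout. By the rule each was read in a single tumour, and they were not in the same one.

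Of 64 listed germline genes, 54 stayed under 100 counts in every tumour and 6 passed it in 1 tumour alone, beside 8831 and 936 of all 18730 protein-coding genes. Tex15, a meiotic protein, had 0, 20 and 194 counts, Piwil2, of the piRNA pathway, 28, 346 and 38, and Rec8, the meiotic cohesin, 7, 532 and 74. None met the rule, but Rnf17 and Clgn are not on that list.

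Among the 122 genes of other function, blood and innate immune genes were 2, 5 and 5 in tumours 1, 2 and 3. The interferon-induced Ifitm2 and Ifitm1, which restrict entry of viruses, had 1047, 5 and 10 and 102, 1 and 9 counts. Both lie side by side on chromosome 7 (140954837 to 140955987 and 140967221 to 140969825), 11234 bases apart. The next gene of the cluster, Ifitm3, was also highest in tumour 1 (713, 68 and 22 counts), and Ifitm5 had 11, 0 and 0, while Ifitm6 (2, 7 and 10) was not. These genes resemble each other, so how reads were divided among them is uncertain.

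Tumour 2 read Nlrp1b, an inflammasome sensor (0, 241 and 9 counts), Ank1, the ankyrin of red cells (2, 259 and 2), the chemokine Cx3cl1 (8, 148 and 1), the complement protease Masp1 (0, 144 and 2) and the platelet collagen receptor Gp6 (10, 138 and 9). Erythroid markers were low in all tumours, with Hbb-bs at 61, 168 and 84 counts. In tumour 3, Itgad, the leukocyte integrin alpha D, had 0, 5 and 882 counts, the chemokine receptor Ccr3 0, 3 and 475, and Gfi1b, a repressor of red cell and platelet precursors, 1, 4 and 203. The related receptor gene Ccr2 was also highest in tumour 3 (35, 100 and 1054 counts).

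Regulators of transcription and development were 2 in tumour 2 and 10 in tumour 3. Maml3, a Notch coactivator, had 1, 458 and 4 counts, while Maml1 (393, 639 and 887) and Maml2 (240, 712 and 772) were read in all tumours. In tumour 3, Sall1, a zinc finger factor of kidney development, had 0, 8 and 527 counts, and Yap1, the effector of Hippo signalling, 1, 0 and 229. Hoxb6 (0, 3 and 159 counts) and Hoxb4 (0, 1 and 138), homeobox genes of early blood progenitors, share a cluster on chromosome 11 (96292476 to 96301569 and 96318267 to 96321638). Their cofactor Meis1 had 1, 1 and 121 counts.

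Within that cluster the signal was local. Hoxb5, between the pair, had 2, 0 and 48 counts and Hoxb7 0, 2 and 51, while Hoxb3 had 0, 0 and 7 and Hoxb1 and Hoxb2 had none. Hoxb13, farther out, was read in tumours 2 and 3 (0, 117 and 177 counts). No Hoxa gene in the files passed 5 counts in any tumour.

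Matrix, adhesion and epithelial genes were 2, 1 and 15. In tumour 3, Podnl1, a leucine-rich matrix protein, had 2, 10 and 681 counts, Chst11, a chondroitin sulfotransferase, 2, 8 and 490, the epithelial marker Epcam 7, 7 and 151 and the p53 and p63 target Perp 0, 0 and 230. In tumour 1, Fam20c, a kinase of secreted proteins, had 331, 4 and 10 counts and Col1a1, the collagen I alpha 1 chain, 127, 0 and 7. The fibroblast genes Col3a1, Dcn and Pdgfrb had no count in tumour 1, and Col1a2, whose product pairs with that of Col1a1, had 1.

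Genes of small GTPase, actin and kinase signalling were 1, 2 and 18, and those of metabolism and transport 1, 4 and 8. Stard13, a GTPase-activating protein, had 3, 1106 and 2 counts, and Vill, a villin relative, 0, 325 and 5. Arhgap29, also a GTPase-activating protein, had 611, 1 and 0 counts in tumours 1, 2 and 3. Tbc1d4, which controls glucose transporter traffic, had 2, 9 and 836 counts. Pde1c, a cyclic nucleotide phosphodiesterase, had 6, 258 and 3 counts and Slco5a1, an organic anion transporter relative, 144, 4 and 0.

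Genes with no class included some of the most counted ones. Gm11639 had 9, 1230 and 4 counts, and Efcab3, which shares exons with it on the same strand, had 0, 65 and 0. In tumour 3, Fam129b had 5, 10 and 786 counts and Cables1, a regulator of cyclin-dependent kinases, 0, 5 and 626. In tumour 1 they were Tcerg1l (326, 9 and 1 counts), Fam186a (221, 0 and 0), Gm525 (194, 0 and 4) and Sema3g, a semaphorin (187, 10 and 9). In tumour 2, Epb41l4b, of the band 4.1 family, had 0, 453 and 0 counts and the kinase gene Nek11 5, 263 and 4. Beyond the 8 genes with the most counts per tumour, 2, 15 and 81 genes of other function remained in tumours 1, 2 and 3, at 102 to 127, 105 to 241 and 102 to 480 counts.

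The low counts in the silent tumours were not the same in each. The 112 genes of tumour 3 summed to 226 counts in tumour 1 and 551 in tumour 2, and 78 of them were higher in tumour 2, 20 in tumour 1 and 14 equal. The 34 genes of tumour 2 summed to 74 counts in tumour 1 and 134 in tumour 3, and the 18 of tumour 1 to 56 in tumour 2 and 74 in tumour 3. The same order, though not the same size, held over all 6624 protein-coding genes with at most 10 counts in every library. These summed to 3778, 5703 and 6890 counts. In proportion, the gap between tumours 1 and 2 was wider for the 112 genes of tumour 3 (226 against 551). The source of these low counts was not tested. 

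Position on the chromosome, which the rule did not use, showed few runs. Of the 164 genes, 4 were next to another gene of the same tumour in the order of protein-coding genes. These were Ifitm2 and Ifitm1 in tumour 1 and Ppm1j (1, 1 and 183 counts), a phosphatase, and Rhoc (5, 2 and 186), a small GTPase, in tumour 3, on chromosome 3 with 2357 bases between them. Within 100 kb, Hoxb4 and Hoxb6 joined them, and within 1 Mb 21 genes had a partner. Every autosome and the X chromosome held at least 3 genes of the set, from 0.829% of expressed protein-coding genes on chromosome 19 to 2.28% on chromosome 13.

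The nearest protein-coding gene that does not overlap was compared between tumours for each gene. Of neighbours with 10 counts in any library, 3 of 11 in tumour 1 (27.3%), 6 of 24 in tumour 2 (25%) and 17 of 78 in tumour 3 (21.8%) were at least 1 log2 unit above both other tumours in the tumour that read the gene. Over all 12211 protein-coding genes with 10 counts, the same was met by 5.0%, 5.48% and 10.4%. The median difference of log2 CPM from the mean of the other tumours was 0.11, 0.34 and 0.45 for these neighbours, and -0.07, 0.01 and 0.08 for all such genes. A further 7, 10 and 34 neighbours were under 10 counts in every library. Genes of the set are counted among these neighbours, 1 in tumour 1 (Ifitm2) and 1 in tumour 3 (Rhoc), and the 3 neighbours higher in tumour 1 are Ifitm2, Ifitm5 (11, 0 and 0 counts) and B3galt5. No test of the neighbours was made.

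**Figure D4:**
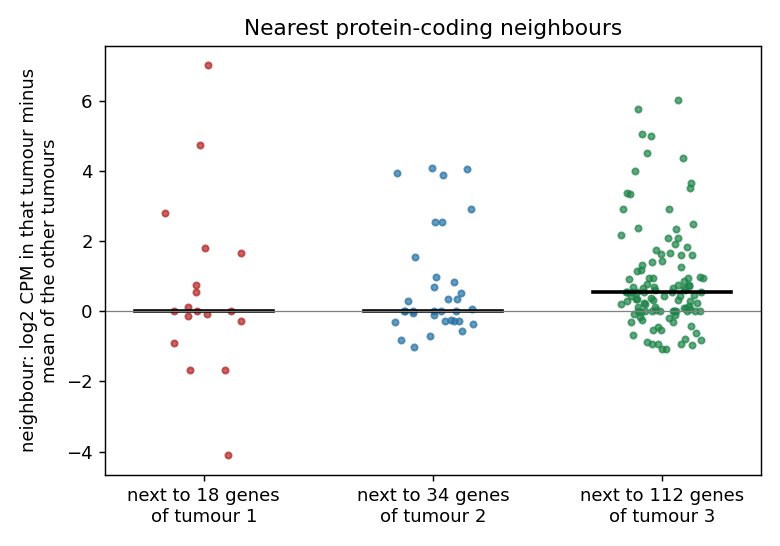
For the nearest protein-coding neighbour of each gene, log2 CPM in the tumour that reads the gene minus the mean of the other tumours (prior count of 2), with points for genes and bars for the medians of 0.00, 0.00 and 0.54 over all neighbours. Neighbours without counts lie at 0, and the highest point of tumour 1 is Ifitm2, the neighbour of Ifitm1.

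Some neighbours were highest in the same tumour as the gene of the set without meeting both limits, and the examples here are spread over functions. Next to Maml3, Mgst2, a glutathione transferase, had 30, 1265 and 229 counts. Beside Cx3cl1 the chemokine gene Ccl22 had 6, 282 and 34. Slc9a3r2 next to Npw had 3, 124 and 12 counts, and B3galt5, a galactosyltransferase next to Sh3bgr, 455, 3 and 72. In tumour 3, Itgax (CD11c) beside Itgad had 5, 58 and 759 counts, Themis, a T cell signalling gene beside Ptprk, 4, 12 and 549, Ccl5 beside Heatr9 98, 265 and 4233, and Sspo beside Zfp467 0, 15 and 411.

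Among the genes with the most counts per tumour, Myh13 lay next to Myh8, which had 0, 31 and 0 counts and stayed under the upper limit. Reads of such similar genes can be shared, so the value of Myh8 in tumour 2 is uncertain. Nyx and Ikzf2 had no nearest protein-coding neighbour of their own pattern. Cask, next to Nyx, had 12, 72 and 31 counts and was lowest in tumour 1. Slc43a1, next to Rtn4rl2, had 8, 235 and 151 counts and was likewise lowest in tumour 1. The nearest neighbours of Foxp2 (Ppp1r3a, no count) and Ikzf2 (Spag16, 0, 0 and 2 counts) were near silent in all 3. Gm14506, a processed pseudogene 1185 bases from Nyx, had 136, 0 and 3 counts.

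Exons of 46 genes overlap another annotated gene, and for 9 of them that gene had 100 counts in the same tumour, all on the opposite strand. Without a stated strand setting of the counting, reads of such pairs cannot be told apart. For 6 of them the partner had 304 or more counts in every tumour. Cnot7 over Zdhhc2 had 858, 1262 and 1332 counts, Rab5if over Sla2 499, 606 and 564, Wdr61 over Dnaja4 757, 769 and 688, Map1lc3b over Zcchc14 1105, 1113 and 1113, Aste1 over Nek11 391, 304 and 333 and Fars2 over Nrn1 330, 369 and 392. The exceptions were Nfkbil1 over Gm16181 (486, 1186 and 292 counts), Lrsam1 over Fam129b (53, 220 and 319) and 4931431B13Rik over Itgad (0, 0 and 170), each highest in the tumour that read the gene of the set.

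In CpG content, promoters of the set were near promoters in all, which places them between those of broadly read and silent genes. A RefSeq promoter matched 117 of the 164 genes. At an observed over expected CpG ratio of 0.6 or more, the share was 51.3% (60 of 117), against 56.7% of 14593 promoters in all, 81.1% of 6728 for genes with 100 counts in every library and 26.5% of 4897 for genes with at most 10 counts in every library. The 95% interval (Wilson) of the set's share, 42.3% to 60.2%, includes the share of all promoters. It treats the genes as independent draws, and all promoters include those of the set, so it is a description and no test. The median ratio was 0.615 for the set, 0.670 for all promoters, 0.812 for broadly read and 0.321 for silent genes. Genes silent in exactly 1 lymphoma also lay between, at 58.2% of 91 promoters and a median of 0.670, so this place is not particular to the set. By tumour the share was 42.9% of 14, 41.7% of 24 and 55.7% of 79 promoters.

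By function, the median ratio was 0.197 over 4 lymphoid, 0.620 over 19 neural, 0.419 over 3 muscle and 0.638 over 91 other promoters. Neural promoters varied, from the CpG-poor window of Kcnip3 to the CpG-rich one of Pcdh17 printed above. Differences between tumours or functions were not tested. DNA methylation was not measured in these files.

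**Figure D5:**
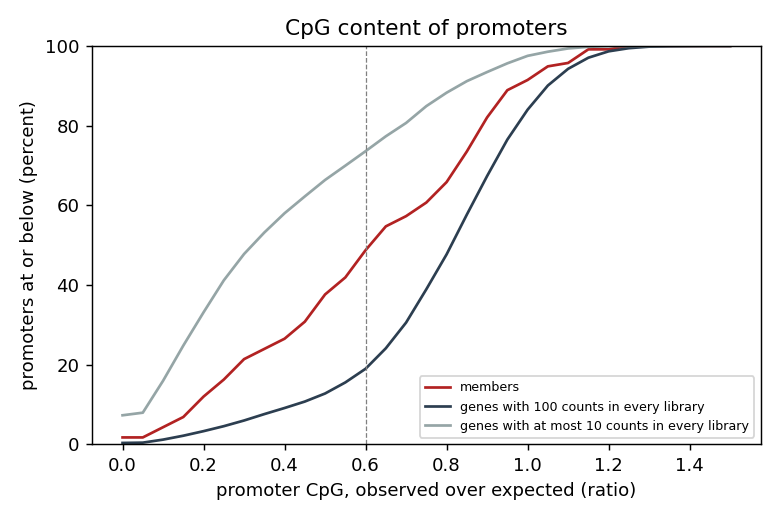
Cumulative percent of promoters (vertical axis) at or below each observed over expected CpG ratio (horizontal axis) for the 117 genes of the set (members), for genes with 100 counts in every library and for genes with at most 10 in every library. The curve of the set runs between the others, and the dashed line marks the ratio of 0.6.

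Short motifs were counted on both strands of the same windows, and matches may overlap each other. The κB-like pattern of GGG and CC with 5 bases between was present in 65% of the set's promoters and 61.2% of all, the GC box GGGCGG in 57.3% and 53.7%, CCAAT in 34.2% and 38.6%, TATAAA in 8.55% and 10.6% and the E-box CACGTG in 5.98% and 8.79%. A match describes the letters of the window and shows no binding. The shares differed from those of all promoters by less than 5 percentage points.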

How the data were processed

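PolyA RNA of 3 libraries of sorted lymphoma cells was read in single-end runs of 50 nt. The authors deposited raw gene-level counts. Per the submitters' processing notes, tools were STAR 2.5.2b for mm10 and featureCounts 1.6.0. Neither annotation release nor strand setting is given in the sources used here. GENCODE M21 matched 37536 of 37646 gene identifiers without version and gave positions and exon lengths.

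CPM used TMM factors of edgeR 4.0.16 (R 4.3.3) after filterByExpr, log2 CPM a prior count of 2. DESeq2 1.42.0 size factors were an alternative. Intervals used SciPy 1.17.1, tables pandas 2.3.3 with NumPy 2.4.6, and plots matplotlib 3.10.9, all in Python 3.11.15. The limits of 100 and 10 apply to raw counts, and the steps were checked on simulated counts. With 1 group and 1 library per tumour, no contrast was fitted and no test was made.

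The genes and lists were chosen with earlier results of these data known. Functions were assigned by hand from symbols. Named were all sorted genes, the 8 genes of other function with the most counts per tumour, adjacent genes, those nearest the limits and the highest RPKM per tumour. Relatives, neighbours and further examples were named after their values were seen. Alternatives covered limits, scaling, predicted and overlapping genes, and leaving out each library.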

Additional observations from a re-analysis of the deposited data

How the results depend on the processing

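The limits set the size of the set. At 50, 200 and 500 counts it held 284, 74 and 24 genes (27, 10 and 6 in tumour 1, 58, 15 and 4 in tumour 2, 199, 49 and 14 in tumour 3). With at most 5 or 20 counts in the others it held 91 or 268 (10 or 35, 20 or 56, and 61 or 177). Tumour 3 had the most genes and tumour 1 the fewest under these limits, except that tumour 2 had 4 against 6 in tumour 1 at 500 counts. CPM limits gave 146 to 156 genes with TMM factors, DESeq2 size factors or total counts, and 96 to 105 in tumour 3. Leaving out genes with an overlapping gene left 118 (22 in tumour 2). Leaving out 1 library gave 173 to 417 genes in all, 35 to 53 for tumour 1, 51 to 206 for tumour 2 and 122 to 382 for tumour 3, since fewer libraries then have to be silent.

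Of 75 class counts under alternatives, 14 moved by over 1.5 times, all through stricter limits. At 200 counts, neural genes of tumour 2 were 3, muscle genes of tumours 1 and 3 were 0 and 1, the germline gene of tumour 3 was lost (0) and genes of other function were 5, 9 and 33. At 5 counts, lymphoid genes of tumour 3 were 2, neural genes of tumour 3 were 7, muscle genes of tumour 3 were 1, the germline gene of tumour 2 was lost (0) and genes of other function were 4, 13 and 50. Within 1 Mb, 21 genes had a partner. The CpG share was 39.3% at a ratio of 0.75, 47.7% without overlapping genes and, chosen after seeing the data, 54.6% for windows within 500 bases of the GENCODE start. The neighbours' median difference was 0.34 to 0.43 under its alternatives. RPKM are on another scale and were not compared with CPM. No paired analysis was possible because the labels give 1 group. Depth limits the silent side: 3 counts equal 0.199, 0.184 and 0.169 CPM.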

Other observations

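Rows that are not protein-coding also met the limits, with 5 in tumour 1, 17 in tumour 2 and 7 in tumour 3. Unlike for protein-coding genes, tumour 2 had the most of them. Immunoglobulin V segments made 2, 4 and 2 of these rows, led by Ighv11-2 (3696, 10 and 4 counts) in tumour 1 and the pseudogene Igkv4-73 (4, 2580 and 4) in tumour 2. T cell receptor V segments were 2 rows of tumour 3, Trbv13-2 (0, 1 and 1262 counts) and Trbv12-2 (0, 0 and 439).

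Long non-coding and predicted rows made most of the others. In tumour 2 they included Gpr31c, a transcribed pseudogene (0, 613 and 1 counts), 9130015A21Rik (1, 492 and 9) and Gm17189, an antisense gene 5206 bases from Ly6g6g (1, 242 and 0), and Ly6g6g itself had 0, 136 and 1. In tumour 3, Ifngas1, a non-coding gene near the interferon gamma locus, had 0, 3 and 178 counts. In tumour 1, Gm27252 had 204, 1 and 3 counts and Gm34759 103, 2 and 1.

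No Y-linked gene belonged to the set, although these genes differed between the libraries. Kdm5d had 0, 50 and 1139 counts and Uty 0, 34 and 474, so the Y-linked genes of tumour 3 missed the limit of 10 through their counts in tumour 2. Xist, the RNA of the inactive X chromosome, had 66596, 31 and 7 counts, and Nyx is the X-linked gene among the 18 genes of tumour 1.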
